A study of Mus musculus with 4 samples.

Results

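Oxidative phosphorylation genes of the mouse were followed in spermatocyte suspensions with and without Np95 (Uhrf1). The genes were taken by symbol from the deposited table: names beginning Nduf, Uqcr or Atp5, the nuclear subunits Cox4 to Cox8 with their letters and digits, Sdha to Sdhd, and the cytochrome c genes Cycs and Cyct. This gave 94 of 24444 rows, of which 44 belonged to complex I, 4 to complex II, 8 to complex III, 20 to complex IV, 16 to complex V and 2 to cytochrome c. The rule used names alone and no measured value, but it was chosen with earlier results of these data known. Assembly factors and relatives that share a prefix (Ndufaf1 to Ndufaf7, Atp5sl, Atp5s, Cox7a2l) came with the subunits and were kept apart by role, and Ndufa4 and Ndufa4l2 were counted with complex IV.

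The study compared poly(A) RNA of spermatocytes from control and Np95 knockout mice, with 2 libraries in each group. All 4 libraries were labelled C57BL/6 and 21 dpc, an abbreviation that the labels do not spell out. The table's column headers read cKO for the knockout, and the Cre line or promoter behind it is not given in the sources used here, nor is the genotype of the controls beyond the word control. Cells came from tubules dissociated with accutase and passed through a mesh, with no sort described, so other testis cells can be present. Nothing in the labels says that the 2 libraries of a group came from separate animals, and each p-value covers only the scatter among the 4 libraries, which could be technical. Uhrf1 itself, which encodes the factor that recruits DNA methyltransferase to replicating DNA, was measured at 3.11 and 3.29 RPKM in the control libraries and at 1.87 and 1.48 RPKM in the knockout libraries. It was 1.91-fold lower in the knockout (limma, log2 fold change -0.65, adjusted p = 0.0031), so transcripts of the gene were still present in the knockout suspensions. Which part of the gene was deleted is not given in the sources used here, and reads outside it count too.

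In oxidative phosphorylation, complexes I and II pass electrons from NADH and succinate to coenzyme Q, complex III passes them to cytochrome c, and complex IV passes them to oxygen. Complexes I, III and IV pump protons across the inner mitochondrial membrane, and complex V, the ATP synthase, lets them return and makes ATP. Male germ cells are known for replacing a few general components by testis isoforms during meiosis, among them cytochrome c (Cyct in place of Cycs) and subunits of complex IV (Cox6b2, Cox7b2 and Cox8c in place of Cox6b1, Cox7b and Cox8a).

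Values are RPKM, that is, reads normalised to the length of the gene and to the reads of its library. A fold is the ratio of the group means of RPKM. Each log2 fold change is knockout minus control on the log2(RPKM + 1) scale, where the differences of low genes come out too small, and a gene is called higher or lower where limma gave an adjusted p under 0.05. The deposited values were scaled by the whole gene, introns included: on that length, 67.8% to 72.3% of low values per library were whole multiples of 1 read within a tolerance of 0.05, against 11% at most on exon length. Genes can therefore be compared between libraries, while RPKM levels of different genes also depend on their introns. The same steps gave depths of 11640000 and 25630000 reads in the control and 22250000 and 9630000 reads in the knockout libraries, in replicate order. The RPKM values summed to 94177 and 96578 in the control and to 72805 and 70135 in the knockout libraries, so results are also given after other scalings.

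Most oxidative phosphorylation genes were lower in the knockout in the deposited values, and a small group that included general partners of the testis isoforms was higher. Of the 94 genes, 85 reached 1 RPKM in at least 2 libraries and were tested. In the knockout 52 fell, 11 rose and 22 were not called. Without control replicate 1 the counts were 38 lower and 6 higher, and without control replicate 2 they were 34 lower and 10 higher. Over all 9099 genes tested, 73.8% were called, 43.3% higher and 30.5% lower. The median log2 fold change was -0.36 for the 85 genes and 0.14 for all genes tested, and the median RPKM ratio was 0.724 and 1.14. Control and knockout values did not overlap in 81 of the 85, where 89.9% of all genes tested did not overlap. Atp5k, Cox6c, Ndufab1 and Ndufs7 were the genes with overlapping groups.

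The direction of calls across the table differed with expression level, so the same counts were read among abundant genes. Of genes with a mean of 5 RPKM or more, 74.9% were called, 27.6% higher and 47.3% lower, with a median log2 fold change of -0.24. The 57 oxidative phosphorylation genes above that level had 4 higher and 39 lower, with a median of -0.42. With no filter the 94 genes had 11 higher and 51 lower, where 34.8% of all 21208 genes were higher and 16.2% lower. The difference between the median of these genes and that of all genes was -0.50 among the genes tested and -0.20 when 5 RPKM was required in at least 2 libraries.

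**Figure D1:**
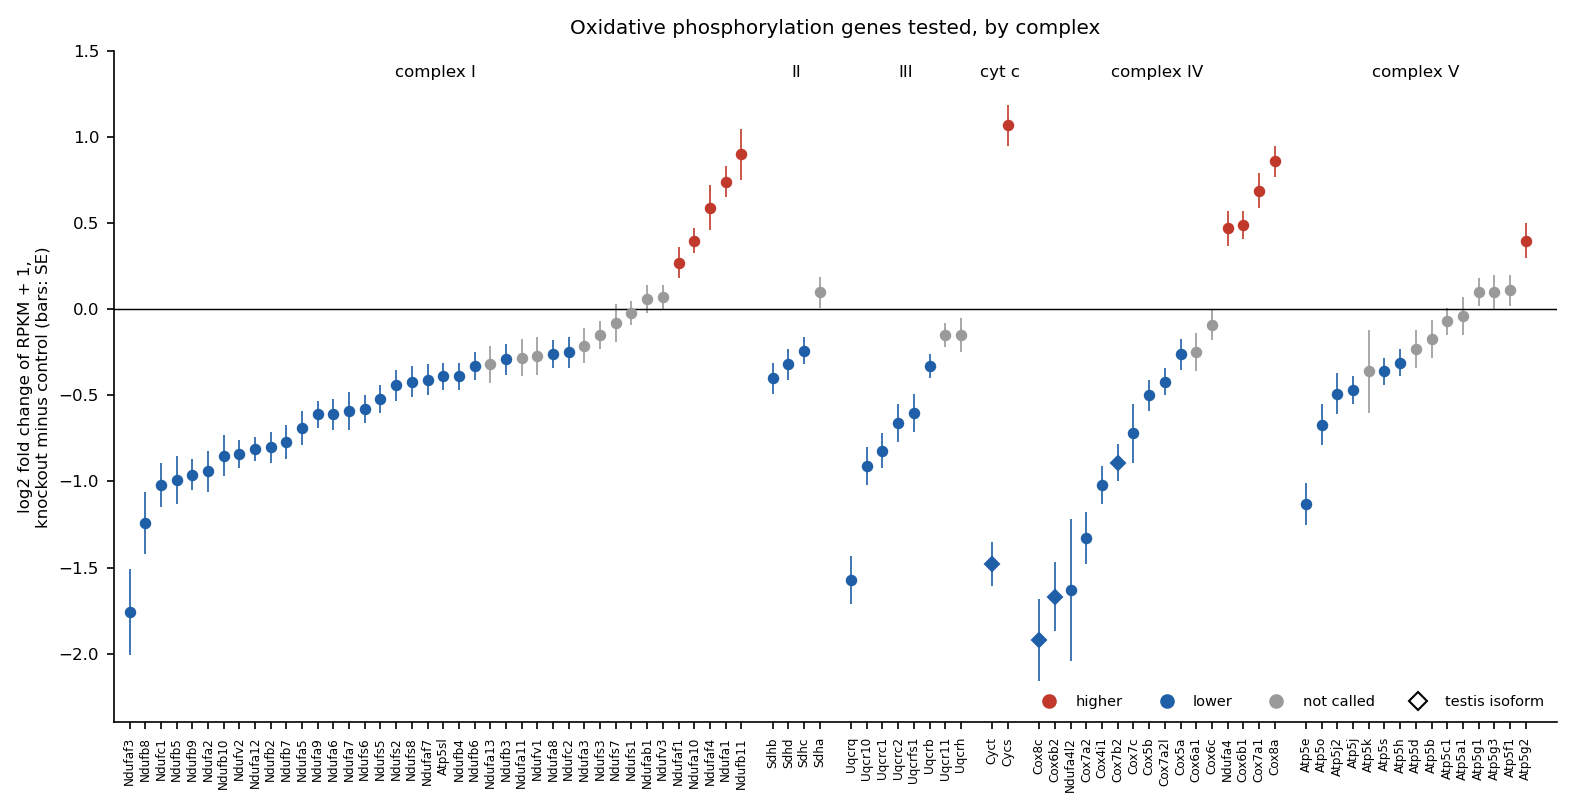
Log2 fold change of RPKM + 1, knockout minus control, for the 85 oxidative phosphorylation genes tested, ordered within each complex. Points are limma estimates with bars of 1 SE, colours show the call, and diamonds mark the testis isoforms, which lie between -1.92 and -0.89. Blue points fill most of complexes I and III, grey points most of complex V, and Cycs is the highest point at 1.07.

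How far the set as a whole moved depended on the scaling between libraries. With every library set to the same RPKM sum, the median of all genes tested moved from 0.14 to 0.44, and 21 of the 85 genes were higher and 27 lower. With equal medians the median of all genes was -0.05 and the counts were 9 higher and 65 lower. With quantile normalization it was 0.01, with 10 higher and 50 lower. Of the calls in the set, 82.5% were in the lower direction as deposited, 56.2% with equal sums, 87.8% with equal medians and 83.3% with quantiles. Of the calls over all genes tested, 41.3%, 24.1%, 53.7% and 49.1% were in the lower direction, in the same order. The median of the 85 genes stayed below that of all genes by 0.38 to 0.50 on the log2 scale under these 4 scalings. No gene of the set that was called as deposited was called in the opposite direction under any of them.

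A core of genes kept its call whichever scaling was used. How many of all genes tested did so is not given here, so the size of this core has no background beside it. Under all 4 scalings 26 genes were lower: 13 of complex I, 4 of complex III, 6 of complex IV, 2 of complex V and Cyct. None of complex II did so, and with equal RPKM sums the medians of complex II and complex V turned to 0.10 and 0.18, while those of complexes I, III and IV were -0.05, -0.24 and -0.10. Under all 4 scalings 6 genes were higher: Cycs, Cox8a, Cox6b1, Cox7a1, Ndufa1 and Ndufb11. All 32 also kept their call when each of the 4 libraries was left out in turn.

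**Figure D2:**
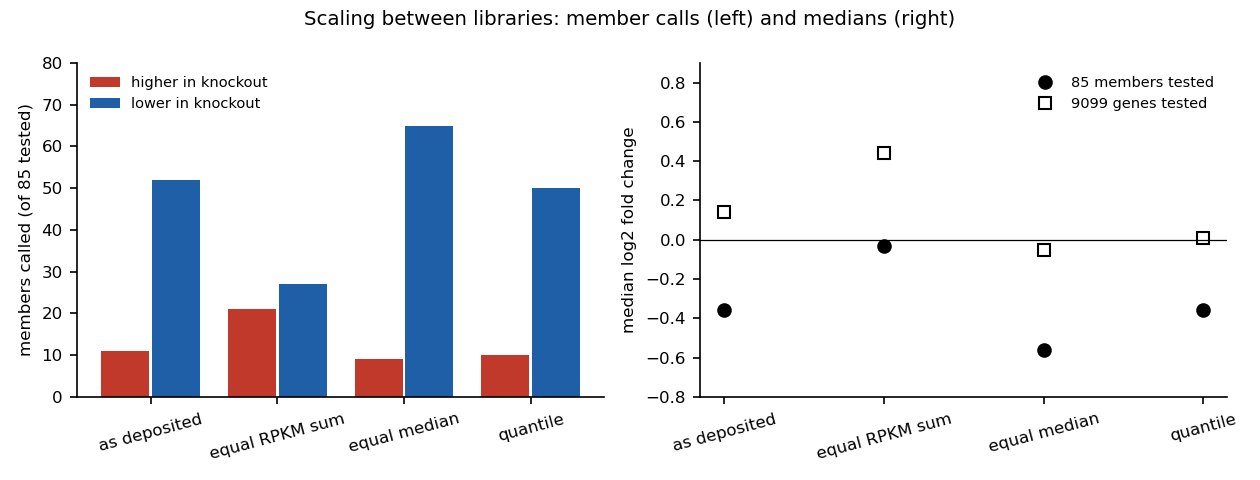
Calls and medians under 4 scalings between libraries. Left: bars count the oxidative phosphorylation genes called higher or lower of the 85 tested. Right: points are the median log2 fold change of these genes (filled circles) and of all 9099 genes tested (open squares). The squares move between -0.05 and 0.44 and the circles lie below them under each scaling.

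The testis isoforms and their general partners went in opposite directions. All 4 testis isoforms fell, with a median log2 fold change of -1.57 and a median RPKM ratio of 0.321. They were lower under each scaling, and with quantile normalization the median of the 3 complex IV isoforms was -0.77, where it was -1.67 as deposited, with Cox8c at -0.77, Cox6b2 at -0.73, Cox7b2 at -1.14 and Cyct at -1.17. The partners Cycs, Cox8a and Cox6b1 rose, and Cox7b, which was below the level for testing, had higher values in the knockout. To show the start regions that go with these pairs, the RefSeq windows of the GRCm38.p6 build, from 250 bases before to 50 bases after the gene start, are printed for cytochrome c and for the Cox6b pair. Np95 maintains methylation at CG dinucleotides, so each CG is in capitals and all other bases are in lower case. The windows lie on the minus strand at chr2:76360404-76360703 (Cyct), chr6:50566520-50566819 (Cycs), chr7:4753045-4753344 (Cox6b2) and chr7:30626065-30626364 (Cox6b1).
Cyct: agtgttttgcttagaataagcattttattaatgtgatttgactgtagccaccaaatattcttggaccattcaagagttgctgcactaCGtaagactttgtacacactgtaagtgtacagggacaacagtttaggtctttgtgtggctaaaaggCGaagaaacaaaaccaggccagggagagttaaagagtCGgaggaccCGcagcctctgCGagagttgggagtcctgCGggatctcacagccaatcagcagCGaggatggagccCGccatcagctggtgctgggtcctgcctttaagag
Cycs: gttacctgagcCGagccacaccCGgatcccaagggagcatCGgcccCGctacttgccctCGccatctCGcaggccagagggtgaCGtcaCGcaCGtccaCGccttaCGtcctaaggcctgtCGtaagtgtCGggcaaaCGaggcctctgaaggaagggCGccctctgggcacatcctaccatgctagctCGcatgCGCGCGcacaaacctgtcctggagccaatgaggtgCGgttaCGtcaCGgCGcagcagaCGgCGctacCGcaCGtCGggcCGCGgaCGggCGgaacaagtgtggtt
Cox6b2: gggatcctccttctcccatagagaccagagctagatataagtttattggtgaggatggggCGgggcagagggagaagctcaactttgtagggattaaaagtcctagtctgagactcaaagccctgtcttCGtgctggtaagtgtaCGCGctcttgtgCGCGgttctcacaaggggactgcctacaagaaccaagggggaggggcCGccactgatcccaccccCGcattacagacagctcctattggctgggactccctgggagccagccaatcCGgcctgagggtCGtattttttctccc
Cox6b1: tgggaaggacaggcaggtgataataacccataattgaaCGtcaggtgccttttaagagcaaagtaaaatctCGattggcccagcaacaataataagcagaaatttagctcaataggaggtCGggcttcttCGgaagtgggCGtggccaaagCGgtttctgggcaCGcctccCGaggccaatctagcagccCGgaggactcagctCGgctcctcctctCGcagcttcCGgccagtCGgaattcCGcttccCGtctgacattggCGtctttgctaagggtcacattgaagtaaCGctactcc

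The testis isoforms had fewer capitals than their partners in both printed pairs. Cyct had 8 CG dinucleotides in its window and Cycs had 32, and Cox6b2 had 10 and Cox6b1 had 17. Cox7b2 had 10 and Cox8a had 19, while the general gene Cox7b had 5. The median was 20 over the 78 oxidative phosphorylation genes with a window in the RefSeq table and 8 over the 27025 genes of that table. No methylation was measured here.

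Letters of 5 motifs were searched on both strands of these windows, as a description only. The cAMP response element TGACGTCA stood in 6.41% of windows of oxidative phosphorylation genes and in 2.03% of all windows, and its shorter core TGACG, which the full element contains, in 35.9% and 23%. The core of the NRF1 motif, GCGCANGCG, stood in 29.5% and 7.03%. The core of the ETS motif, CCGGAAG, stood in 21.8% and 9.93%, and the core of the YY1 motif, AAGATGG, in 15.4% and 7.28%. The Cycs window held TGACGTCA and GCGCANGCG. The Cox6b1 and Cox8a windows held TGACG and CCGGAAG, the Cox7b2 window held TGACG, and those of Cyct, Cox6b2 and Cox7b held none of the letters searched.

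Cyct, the testis form of the electron carrier cytochrome c, was measured at 28.1 and 27.8 RPKM in the control and at 10.6 and 8.34 RPKM in the knockout libraries. Both knockout libraries were well below both controls, and the mean was 2.96-fold lower (limma, log2 fold change -1.48, SE 0.13, adjusted p = 0.0014). Cycs, the form of other tissues, was measured at 7.89 and 8.36 RPKM in the control and at 16.5 and 20.0 RPKM in the knockout. Both knockout libraries lay above both controls, and the mean was 2.25-fold higher (limma, log2 fold change 1.07, SE 0.12, adjusted p = 0.0016). The RPKM of Cyct exceeded that of Cycs in both control libraries and was below it in both knockout libraries, on a length that includes introns.

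Cox8c encodes the testis form of a small membrane subunit of complex IV. It stood at 555 and 553 RPKM in the control and at 182 and 116 RPKM in the knockout libraries. The knockout libraries were both low, the second lower than the first, and the mean was 3.72-fold lower (limma, log2 fold change -1.92, SE 0.24, adjusted p = 0.002). This was the lowest estimate among the 85 genes tested. Cox8a, the general form, stood at 8.34 and 8.56 RPKM in the control and at 16.6 and 15.7 RPKM in the knockout, and rose 1.91-fold (limma, log2 fold change 0.86, SE 0.09, adjusted p = 0.0015) with no overlap between groups.

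Cox6b2 encodes the testis form of the subunit on the intermembrane side of complex IV, the side on which cytochrome c binds. Its values were 288 and 280 RPKM in the control and 105 and 74.8 RPKM in the knockout libraries. All control values were high and all knockout values low, 3.17-fold on average (limma, log2 fold change -1.67, SE 0.20, adjusted p = 0.0017). The general form Cox6b1 was measured at 1.93 and 1.87 RPKM in the control and at 2.94 and 3.19 RPKM in the knockout. It rose 1.62-fold without overlap (limma, log2 fold change 0.49, SE 0.08, adjusted p = 0.0035).

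Cox7b2, the testis form of another small subunit of complex IV, had 2.20 and 2.09 RPKM in the control and 0.857 and 0.546 RPKM in the knockout libraries. The groups did not overlap, and the mean was 3.06-fold lower (limma, log2 fold change -0.89, SE 0.11, adjusted p = 0.0019). Its gene spans 105383 bases for 542 bases of exon, and its control values correspond to about 2699 and 5641 reads. Cox7b, its X-linked partner, had 0.115 and 0.267 RPKM in the control and 0.703 and 0.801 RPKM in the knockout, which correspond to about 9, 46, 106 and 52 reads. It did not pass the level for testing. The knockout values were the higher ones, 3.93-fold on average, and with no filter its log2 fold change was 0.56 (limma, adjusted p = 0.014).

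**Figure D3:**
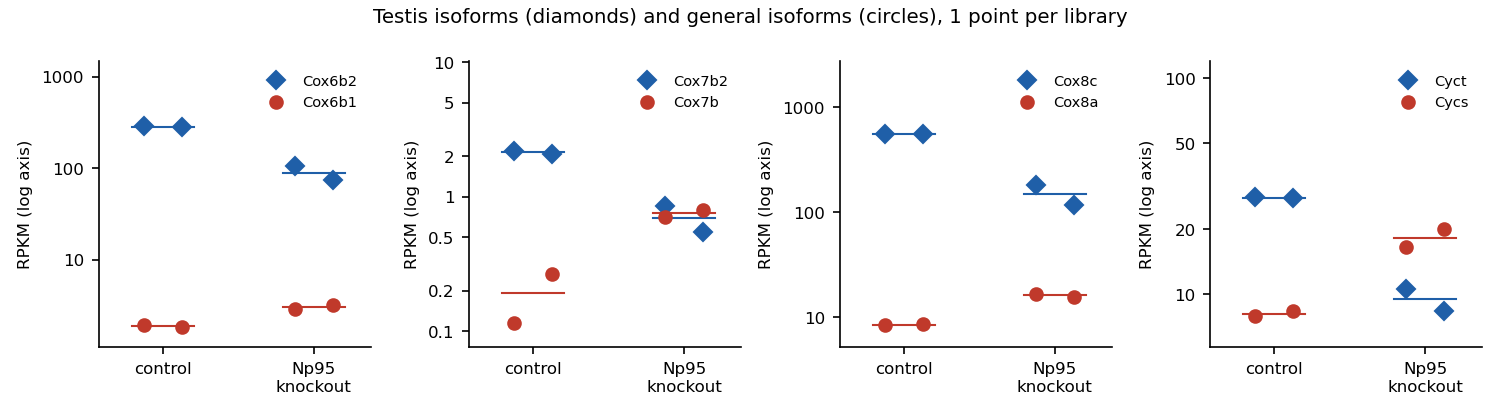
RPKM of the 4 testis isoforms (diamonds) and their general partners (circles) in each library, on a log axis. Short lines are group means of 2 libraries. The diamonds fall and the circles rise from control to knockout in every panel, and the heights of different genes cannot be compared directly because the scaling length includes introns.

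The ratio of testis to general isoform within a library does not change when a library is multiplied by a common factor. Each fold of a ratio is taken here from the difference between the group means of the log2 ratios. Cyct over Cycs was 3.56 and 3.33 in the control and 0.639 and 0.417 in the knockout libraries, 6.67-fold lower. Cox8c over Cox8a was 66.6 and 64.6 against 11.0 and 7.40, 7.28-fold lower. Cox6b2 over Cox6b1 was 150 in each control library against 35.7 and 23.4, which is 5.18-fold lower. Cox7b2 over Cox7b was 19.1 and 7.82 against 1.22 and 0.682. That pair was 13.4-fold lower, with control values that rest on the few Cox7b reads given above, and its log2 difference went from -3.75 to -1.45 when 1 RPKM was added to each value. In all 4 pairs each knockout ratio was below each control ratio, with an exact two-sided permutation p of 0.33 each, also after adjustment over the 4 pairs, which is the smallest that 2 against 2 libraries can give.

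To set levels of the isoforms beside each other, RPKM was rescaled from the RefSeq gene span to the GENCODE exon length, as an estimate. On that scale the control means were 1487 for Cox8c and 37.8 for Cox8a, 500 for Cox6b2 and 28.1 for Cox6b1, and 278 for Cyct and 10.4 for Cycs. The knockout means were 399 and 72.1, 158 and 45.3, and 94.0 and 23.5. The testis form made up 96.5% and 96.3% of cytochrome c transcripts in the control and 83.2% and 76.4% in the knockout libraries. For the Cox8 pair these shares were 97.6% and 97.5% against 86.8% and 81.6%, and for the Cox6b pair 94.7% in each control library against 80.9% and 73.6%. For Cox7b they were 99.8% and 99.6% against 97.2% and 95.2%. On the exon scale the testis form was the larger part in all 4 libraries of every pair. This scale takes every counted read as exonic, which was not tested. In the deposited RPKM, Cyct was below Cycs in both knockout libraries and Cox7b2 was below Cox7b in knockout replicate 2.

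Cell type markers moved with these isoforms. Each sum of RPKM given for them covers the whole list, with genes below the level for testing. The lists were chosen with earlier results of these data known. Over all genes tested 43.3% were higher and 30.5% lower, and among genes with a mean of 5 RPKM or more 27.6% and 47.3%. All 9 pachytene spermatocyte markers tested fell, with a list of 10 that summed to 1259 and 1236 in the control and 579 and 456 in the knockout libraries. Hspa2 and Ldhc led this list, and Ldhc, the testis lactate dehydrogenase, was 4.23-fold lower. The 3 spermatid markers tested of 8 also fell, and the 8 summed to 31.0 and 30.3 RPKM in the control and to 12.7 and 8.75 RPKM in the knockout. Most of these sums was Acr, with 20.6 and 21.1 RPKM in the control and 8.30 and 5.81 RPKM in the knockout. Prm1, Prm2 and Tnp1 were at most at 0.548, 0.235 and 0.320 RPKM, and the groups of Prm1, Tnp1 and Tssk2 overlapped. With quantile normalization 7 of the 9 pachytene markers were called lower, and Hspa2 was among those not called. The call of Hspa2, the largest part of the pachytene sum, also ended with no filter and without either control library. Knockout replicate 2 had the lower sum in both lists and the lower value for each of the 4 testis isoforms.

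All 11 Sertoli cell markers tested of 12 rose, where 43.3% of all genes tested were higher. Their list sums were 112 and 134 in the control and 343 and 433 in the knockout libraries, led by Aard and Clu. Of Leydig cell markers 5 of 6 rose, 3 of 6 with equal medians or quantiles (sums over 7 of 19.1 and 19.0 against 60.4 and 50.3), and the 3 spermatogonium markers tested did (sums over 6 of 6.74 and 8.69 against 18.1 and 19.3). Of the markers of meiotic entry 5 of 6 rose (32.8 and 33.1 against 49.5 and 47.5), and Sycp3, carried by cells throughout prophase, was not called at 1.05-fold. The 2 peritubular and endothelial markers tested rose (sums over 6 of 2.70 and 2.92 against 8.08 and 13.7), with Pecam1 at most at 0.0265 RPKM. Of 4 macrophage and blood markers tested C1qa and C1qb rose, and the call of C1qa ended with equal medians, quantiles, no filter, and without control replicate 1 or knockout replicate 1. The list sums of 42.7 and 48.9 against 35.4 and 64.6 were mostly globin, led by the uncalled Hbb-b1 (35.6 and 40.8 against 24.4 and 50.9 RPKM), and Ptprc, the defining leukocyte gene, was at most at 0.0116 RPKM. The risers Wt1, Gata4, Dmrt1, Dmc1, Prdm9, Cyp11a1 and C1qb reached 1 RPKM only in the knockout libraries, so they passed the filter through that group. The part of the cell type markers in the values of the isoforms and of the other oxidative phosphorylation genes was not tested. In bulk RNA fewer cells of a type and less RNA per cell cannot be told apart.

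Complex I, which oxidises NADH, had 40 of its 44 genes tested. Beside 30.5% lower and 43.3% higher over all genes tested, 26 of these 40 fell, 5 rose and 9 were not called. Their median log2 fold change was -0.40. Without control replicate 1, 19 fell and 2 rose, and without control replicate 2, 17 fell and 4 rose. With equal RPKM sums 14 fell and 8 rose. The 28 accessory subunits tested had 20 lower and 3 higher, with a median of -0.55, and with equal RPKM sums 12 lower and 5 higher, with a median of -0.22. The 7 core subunits, which carry the redox centres and the NADH site, had 3 lower, none higher and 4 not called, with a median of -0.27 that turned to 0.14 with equal RPKM sums, and 1 was lower without control replicate 2. Ndufv2 was the core subunit among the 13 complex I genes that were lower under all 4 scalings. Ndufv2 had 12.5 and 12.7 RPKM in the control and 6.79 and 6.44 RPKM in the knockout. It was 1.90-fold lower with no overlap between groups (limma, log2 fold change -0.84, adjusted p = 0.0014). The gene overlaps Ankrd12 and Gm23264 in the annotation, so part of these reads may be shared. Ndufs1, the largest iron-sulfur subunit, had 4.30, 4.24, 4.14 and 4.23 RPKM across the 4 libraries and was not called (limma, log2 fold change -0.02, adjusted p = 0.79), although it was called higher with equal RPKM sums and lower with equal medians.

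The largest falls of complex I genes were in Ndufaf3, Ndufb8 and Ndufc1. Ndufaf3, an assembly factor, stood at 272 and 295 RPKM in the control and at 105 and 65.3 RPKM in the knockout libraries. Both knockout values were low, 3.33-fold on average (limma, log2 fold change -1.76, SE 0.25, adjusted p = 0.0026). Ndufb8, an accessory subunit of the membrane arm, had 23.9 and 31.7 RPKM in the control and 12.4 and 9.90 RPKM in the knockout, 2.49-fold lower (limma, log2 fold change -1.24, SE 0.18, adjusted p = 0.0028). Ndufc1, another accessory subunit, had 17.8 and 16.5 RPKM against 8.83 and 7.09 RPKM, 2.15-fold lower (limma, log2 fold change -1.02, SE 0.13, adjusted p = 0.0019). None of the 3 had overlapping groups.

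The complex I assembly factors did not move together. Of 5 tested, Ndufaf3, Ndufaf7 and Atp5sl fell and Ndufaf1 and Ndufaf4 rose. The lower calls of Ndufaf7 and Atp5sl ended with equal RPKM sums and without control replicate 2, and that of Atp5sl also without control replicate 1. Ndufaf4 had 1.22 and 1.39 RPKM in the control and 2.07 and 2.90 RPKM in the knockout libraries, 1.90-fold higher (limma, adjusted p = 0.012). Ndufaf1 was 1.28-fold higher (limma, adjusted p = 0.035). The call of Ndufaf4 ended with quantiles (adjusted p = 0.065) and without control replicate 1 (0.054). That of Ndufaf1 ended with quantiles (0.36), with equal medians (0.43), with the replicate number as a block (0.051), with no filter (0.053) and without any single library (0.051 to 0.25). Ndufaf2, Ndufaf5 and Ndufaf6 were below the level for testing, with highest values of 0.541, 0.373 and 0.243 RPKM, as was the accessory subunit Ndufs4 at 0.985 RPKM. With no filter Ndufaf2 was lower by a log2 fold change of -0.31 (limma, adjusted p = 0.011) and Ndufs4 by -0.28 (limma, adjusted p = 0.031).

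The X-linked accessory subunits of complex I rose while most autosomal ones fell. Ndufa1, needed for assembly of the membrane arm, had 7.59 and 6.93 RPKM in the control and 13.2 and 12.3 RPKM in the knockout libraries. Both knockout values were higher, 1.76-fold on average (limma, log2 fold change 0.74, SE 0.09, adjusted p = 0.002). Ndufb11 had 3.16 and 4.35 RPKM in the control and 8.49 and 7.18 RPKM in the knockout, 2.09-fold higher without overlap (limma, log2 fold change 0.90, SE 0.15, adjusted p = 0.0045). Ndufa1 overlaps Rnf113a1 and Ndufb11 overlaps Rbm10 in the annotation, and the library kit does not mark strand, so reads of the overlaps cannot be told apart. With Cox7b, all 3 X-linked genes of the set had higher values in the knockout. Of all 265 X-linked genes tested 251 were higher, and their median log2 fold change was 1.06, so most tested genes of the chromosome rose as well. The 83 autosomal genes of the set had 9 higher and 52 lower. The autosomal accessory subunit Ndufa10 was the remaining riser of complex I, at 1.57-fold (limma, adjusted p = 0.0058), a call that ended with quantiles (adjusted p = 0.11) and without control replicate 1 (0.064).

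**Figure D4:**
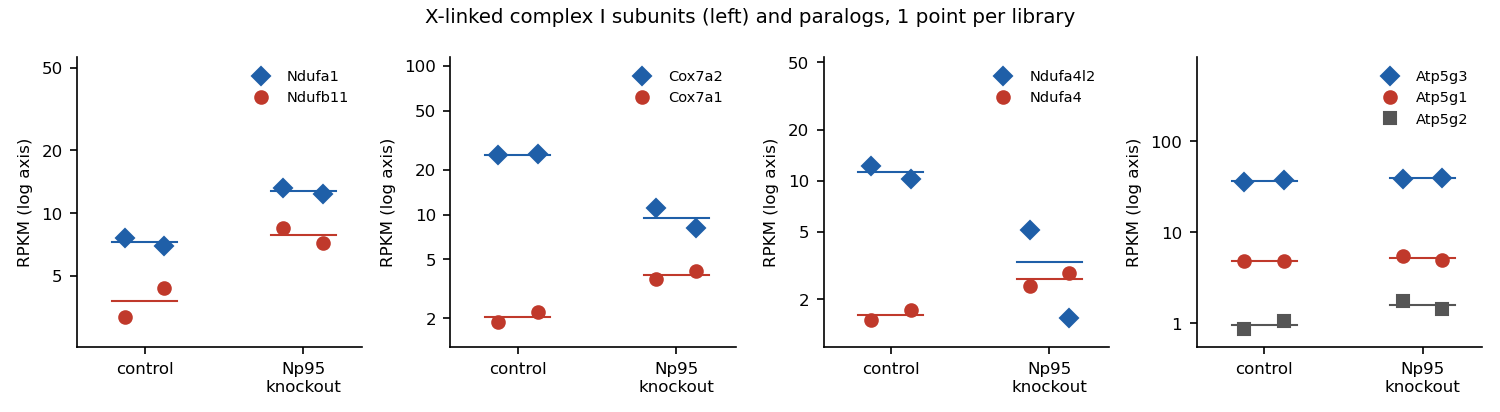
RPKM per library on a log axis for the X-linked subunits Ndufa1 and Ndufb11 and for paralogs of complexes IV and V. Short lines are group means of 2 libraries. Cox7a2 and Ndufa4l2 fall where Cox7a1 and Ndufa4 rise, and Atp5g1 and Atp5g3 keep similar heights in both groups.

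Complex II, which links succinate oxidation to coenzyme Q, showed small differences. Sdhb, the iron-sulfur subunit, had 7.05 and 7.87 RPKM in the control and 5.49 and 5.30 RPKM in the knockout libraries, 1.38-fold lower (limma, log2 fold change -0.40, adjusted p = 0.011). The membrane anchors Sdhd and Sdhc were 1.26-fold and 1.21-fold lower (limma, adjusted p = 0.026 and 0.047). Sdha, the flavoprotein, had 7.05 and 6.75 RPKM against 7.90 and 7.07 RPKM and was not called (limma, adjusted p = 0.36). With equal RPKM sums the 3 calls ended, and the estimates were -0.04 for Sdhb, 0.07 for Sdhd and 0.12 for Sdhc on the log2 scale. All 3 calls also ended without control replicate 2 (adjusted p of 0.11, 0.22 and 0.21 in limma), and those of Sdhd and Sdhc without control replicate 1 (0.12 and 0.24) and with quantiles (0.56 and 0.073). Sdhc ended without knockout replicate 2 as well (adjusted p = 0.08), and with the replicate number as a block (adjusted p = 0.066).

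Complex III had all 8 genes tested, with 6 lower and none higher, beside 30.5% and 43.3% of all genes tested. The median log2 fold change of the 8 was -0.63. Uqcrq, a small subunit next to cytochrome b, stood at 117 and 121 RPKM in the control and at 43.4 and 36.1 RPKM in the knockout libraries. Both knockout values were far below both controls, 3.0-fold on average (limma, log2 fold change -1.57, SE 0.14, adjusted p = 0.0014). Uqcrq overlaps Gdf9 in the annotation, so part of these reads may be shared. Uqcr10, a small subunit, was 1.93-fold lower and Uqcrc1, a core protein of the matrix side, 1.81-fold lower (limma, adjusted p = 0.0018 and 0.0017). Uqcrfs1, the Rieske iron-sulfur protein that hands electrons on towards cytochrome c, had 28.1 and 28.6 RPKM against 19.7 and 17.2 RPKM, 1.54-fold lower (limma, adjusted p = 0.0054), a call that ended with equal sums (adjusted p = 0.12) and quantiles (0.28). Uqcrh and Uqcr11 were not called. Cyc1, the cytochrome of complex III that lies outside the naming rule, had 39.9 and 44.0 RPKM in the control and 46.9 and 47.8 RPKM in the knockout and was not called (limma, adjusted p = 0.21).

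In complex IV, 16 of 20 genes were tested, with 10 lower, 4 higher and 2 not called. Over all genes tested 30.5% were lower and 43.3% higher, and among genes with a mean of 5 RPKM or more 47.3% and 27.6%. Outside the testis isoforms, the general subunits were split, with 5 lower, 3 higher and 2 not called of 10 tested, with 2 lower and 4 higher after scaling to equal RPKM sums, and with 3 lower and 3 higher without control replicate 2. The deposited counts of the general subunits were not far from the shares of those abundant genes, so the split is not read as particular to complex IV. Cox4i1, the general form of the regulatory subunit, stood at 77.0 and 79.4 RPKM in the control and at 38.8 and 37.4 RPKM in the knockout libraries. Both knockout values were low, 2.05-fold on average (limma, log2 fold change -1.02, SE 0.11, adjusted p = 0.0015). Its lung form Cox4i2 and the heart and muscle forms Cox6a2 and Cox8b were below the level for testing, with at most 0.0579, 0.252 and 0.115 RPKM. Cox5b was 1.47-fold, Cox7c 1.70-fold and Cox5a 1.24-fold lower, and Cox6a1 and Cox6c were not called. These 3 lower calls ended with equal RPKM sums, that of Cox5a also without either control library or knockout replicate 2, with the replicate number as a block and with no filter, and that of Cox7c also without control replicate 2 and with quantiles. Cox7a2l, which joins complexes III and IV in supercomplexes, was 1.42-fold lower (limma, adjusted p = 0.0058), a call that ended with equal sums (adjusted p = 0.45) and without control replicate 2 (0.062).

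The Cox7a and Ndufa4 paralogs also moved in opposite directions. Cox7a2, the general form, had 25.2 and 25.4 RPKM in the control and 11.0 and 8.09 RPKM in the knockout libraries, 2.64-fold lower (limma, log2 fold change -1.33, SE 0.15, adjusted p = 0.0017). Cox7a1, known as the heart and muscle form, had 1.90 and 2.21 RPKM against 3.70 and 4.17 RPKM, 1.91-fold higher (limma, log2 fold change 0.69, SE 0.10, adjusted p = 0.0025). Here the general form fell and the tissue form rose, the reverse of the 4 testis pairs. Cox7a2 overlaps Tmem30a in the annotation.

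Ndufa4, now counted as a subunit of complex IV, had 1.51 and 1.72 RPKM in the control and 2.39 and 2.86 RPKM in the knockout libraries, 1.62-fold higher (limma, adjusted p = 0.0094), a call that ended with quantiles (adjusted p = 0.073) and without control replicate 1 (0.064). Its relative Ndufa4l2 had 12.2 and 10.3 RPKM against 5.10 and 1.55 RPKM, 3.39-fold lower (limma, log2 fold change -1.63, SE 0.41, adjusted p = 0.017). The knockout libraries were both lower but far from each other, Ndufa4l2 overlaps Shmt2, and its adjusted p was 0.058 in limma with no filter.

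In complex V the uncalled genes were the largest group: of 15 tested, 6 fell, 1 rose and 8 were not called, with a median log2 fold change of -0.23. Equal RPKM sums gave 6 higher and 2 lower, equal medians none higher and 9 lower, and quantiles 4 higher and 6 lower. Leaving out a control library gave 3 or 4 lower. In the catalytic F1 head, 4 of 5 subunits were not called in the deposited values. With quantiles 3 were higher and 2 lower, with equal medians 4 were lower, and with equal sums 2 were higher and 1 lower. Atp5b, the catalytic beta subunit, had 93.1 and 95.0 RPKM in the control and 83.9 and 82.9 RPKM in the knockout libraries (limma, log2 fold change -0.17, adjusted p = 0.22). This gene turned to 0.73 with quantile normalization (adjusted p = 0.0041) and to -0.36 with equal medians (adjusted p = 0.038). Atp5a1, the alpha subunit, which overlaps Haus1 in the annotation, had 59.7, 60.7, 57.5 and 59.2 RPKM (limma, log2 fold change -0.04, adjusted p = 0.72). It was called higher with equal sums and with quantiles. Atp5e, the small epsilon subunit of the same head, differed from these: it had 61.0 and 69.8 RPKM against 30.8 and 28.0 RPKM, 2.22-fold lower (limma, log2 fold change -1.13, SE 0.12, adjusted p = 0.0016).

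In the stalk and membrane part of complex V, 4 of 6 genes tested fell and none rose, with 1 lower and 1 higher after scaling to equal RPKM sums and 2 lower without control replicate 1. Atp5o, which ties the head to the outer stalk, had 7.21 and 6.69 RPKM in the control and 4.51 and 3.55 RPKM in the knockout libraries, 1.73-fold lower (limma, log2 fold change -0.67, adjusted p = 0.0053). Atp5j was 1.43-fold lower (limma, adjusted p = 0.005), a call that ended without control replicate 1 (adjusted p = 0.059), with equal RPKM sums (0.39) and with quantiles (0.054). It overlaps Gabpa, a called riser, in the annotation. Atp5s, coupling factor B, was 1.51-fold lower (limma, adjusted p = 0.0092), a call that ended with equal sums (adjusted p = 0.27) and without either control library (0.082 and 0.064). Atp5l was below the level for testing, at most at 1.0 RPKM.

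Of the 3 genes for the same c ring protein, Atp5g2 rose and Atp5g1 and Atp5g3 were not called. Atp5g2 had 0.864 and 1.05 RPKM in the control and 1.74 and 1.42 RPKM in the knockout libraries, 1.65-fold higher (limma, log2 fold change 0.40, adjusted p = 0.016), a call that ended with equal medians (adjusted p = 0.12), quantiles (0.3) and without control replicate 1 (0.11). Atp5g1 had 4.89, 4.81, 5.53 and 5.02 RPKM, and Atp5g3 had 35.5, 37.5, 38.9 and 39.5 RPKM. Atpif1, the inhibitor that binds the ATP synthase head, had 31.1 and 35.3 RPKM against 17.6 and 14.8 RPKM and was 2.05-fold lower (limma, log2 fold change -0.99, adjusted p = 0.0021).

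Genes that serve the complexes were spread in both directions. Of 74 genes tested in 8 other pathway lists, 31 rose and 16 fell (17 and 19 rose without control replicate 1 or 2), beside 43.3% and 30.5% of all genes tested. With equal medians 19 rose and 27 fell. With the filter at 5 RPKM 10 of 37 rose and 15 fell, where 1080 of all 3468 genes tested rose and 1629 fell. The risers Etfb, Acad9, Coq7, Adck3, Lrpprc, Vdac1, Tfam, Tfb2m and Gabpb1 reached 1 RPKM only in the knockout libraries. They passed the filter through the group where they were higher. The 13 mitochondrially encoded subunits were searched by symbols that begin with mt-, and the deposited table had no row under them. Among assembly and copper delivery factors of complex IV 4 of 17 rose and 6 fell, with 7 and 4 after scaling to equal RPKM sums and 1 and 5 without either control library. Cox15, which makes heme A for complex IV, was 2.28-fold higher (limma, adjusted p = 0.0014), while Coa4 and Pet100 were 2.39-fold and 2.25-fold lower (limma, adjusted p = 0.0014 for each). Among assembly factors of the other complexes 5 of 13 rose and 3 fell, with 2 and 4 after scaling to equal medians and 2 and 2 without either control library. Ecsit, an assembly factor of complex I, was 2.24-fold higher and Bcs1l, which inserts the Rieske protein into complex III, 1.79-fold higher, while Uqcc2, which is needed to make cytochrome b, was 2.92-fold lower (limma, adjusted p = 0.0015, 0.0019 and 0.0014).

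The carriers that exchange ADP and ATP across the inner membrane did not fall. Slc25a4, known as the heart and muscle form, had 10.1 and 12.2 RPKM in the control and 26.4 and 30.1 RPKM in the knockout libraries, 2.54-fold higher (limma, log2 fold change 1.27, adjusted p = 0.0015). The X-linked Slc25a5, a general form, had 7.89 and 9.66 RPKM against 21.4 and 24.3 RPKM, 2.60-fold higher (limma, log2 fold change 1.29, adjusted p = 0.0015). Slc25a31, the germ cell form, was added to these after its values were seen. It had 9.53 and 10.1 RPKM against 11.7 and 11.8 RPKM, 1.20-fold higher (limma, log2 fold change 0.24, adjusted p = 0.048), where the testis isoforms of complex IV and cytochrome c fell. Its call ended with equal medians (adjusted p = 0.61), with the replicate number as a block (0.075), without either control library (0.31 and 0.19) and without knockout replicate 2 (0.06). The outer membrane porin Vdac1 was 3.51-fold higher and Vdac2 1.45-fold lower (limma, adjusted p = 0.0014 and 0.0074), and the call of Vdac2 ended with equal sums (adjusted p = 0.3), quantiles (0.054) and without control replicate 2 (0.062).

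Regulators of nuclear genes for mitochondria and of mitochondrial DNA had 7 of 11 higher and none lower, beside 43.3% and 30.5% of all genes tested. Of the 11, 6 were higher and 3 lower after scaling to equal medians, and 5 and 2 with quantiles. Without control replicate 1, 4 were higher. Pprc1, a coactivator, had 1.44 and 1.48 RPKM in the control and 4.87 and 5.84 RPKM in the knockout libraries, 3.66-fold higher (limma, log2 fold change 1.36, adjusted p = 0.0014). Tfam, which packages and transcribes mitochondrial DNA, was 2.45-fold higher, and Gabpa, an ETS factor for many respiratory genes, 1.72-fold higher (limma, adjusted p = 0.0027 and 0.0037). The risers Tfam, Tfb2m and Gabpb1 reached 1 RPKM only in the knockout libraries, so they entered the test through the group where they were higher.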

How the data were processed

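Poly(A) RNA of 2 control and 2 Np95 knockout libraries was sequenced as 50-bp pairs with a kit that does not mark strand, per the labels' protocols. The authors deposited RPKM values per gene symbol, with 1 column per library, per the file headers. Bowtie2 and the mm9 build are listed in the submitters' processing notes, and how reads were assigned to genes is not given in the sources used here. After removal of 27 date-like names and of 29 repeats (keeping the highest mean), 24388 symbols remained. The test took genes that reached 1 RPKM in at least 2 of 4 libraries. It used limma 3.58.1 in R 4.3.3 on log2(RPKM + 1), with the trend of variance on mean, two-sided p-values, Benjamini-Hochberg adjustment over all genes tested and a threshold of 0.05. The script was tested on simulated data. Depth came from the steps of low values and limits precision most in control replicate 1 and knockout replicate 2. Exon lengths, spans and overlaps came from GRCm38 annotation, and those of RefSeq and GENCODE differed by at most 1.58% in span for the 8 isoform genes.

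The rule for named genes took Uhrf1, the isoform pairs, tissue isoforms and paralogs, X-linked genes and genes below the filter. It added up to 3 called genes per direction and complex with the largest log2 fold change, separated groups and a group mean of 5 RPKM or more, the most abundant gene of each complex, up to 3 called genes per direction of each other list, and the 2 highest of each marker list. Further genes were named after their values were seen. The gene set and all lists were chosen with earlier results of these data known. Alternatives were other pseudocounts, filters, scalings, a fit without the trend, the replicate number as a block, each library left out, and summed repeated symbols.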

Additional observations from a re-analysis of the deposited data

How the results depend on the processing

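Pseudocounts of 0.1 or 0.5, a fit without the trend and summed repeated symbols left the 11 higher and 52 lower calls as they were. A filter at 5 RPKM gave 4 higher, as did reading genes with a mean of 5 RPKM or more, which was added after seeing the data. Equal RPKM sums gave 21 higher and 27 lower. Leaving out 1 library gave 6 to 10 higher and 34 to 52 lower, with the fewest higher without control replicate 1 (6, with 38 lower) and the fewest lower without control replicate 2 (34, with 10 higher), and the lone library was then assumed to vary like the other group. Other pathway genes (31 higher, 16 lower) had 10 higher with the filter at 5 RPKM, 19 higher and 27 lower with equal medians, 9 lower with equal sums, and 17 to 30 higher with 1 library left out (17 without control replicate 1, 19 without control replicate 2). Among the genes whose estimates were followed under every setting, those that turned with a call were Sdhd (0.07), Sdhc (0.12), Ndufs1 (0.31) and Atp5a1 (0.37) with equal sums and Atp5b (0.73) and Atp5a1 (0.68) with quantiles, and the cause was not tested. The log2 ratio of Cox7b2 to Cox7b moved from -3.75 to -1.45 with 1 RPKM added to each value, which outweighs the low Cox7b values.

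The labels do not say that a replicate number marks a shared animal or day. Same-numbered libraries deviated together with a correlation of 0.109 across 9099 genes. With the replicate block 10 were higher and 50 lower. Depth limits the genes below the level for testing, among them Cox7b with about 9 reads in control replicate 1.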

Other observations

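The tricarboxylic acid cycle, which supplies NADH and succinate to the chain, had 5 of 12 genes tested higher and 3 lower in the knockout, with 8 and 1 after scaling to equal RPKM sums and 5 and 5 with equal medians or quantiles. Over all genes tested 43.3% were higher and 30.5% lower. Cs, citrate synthase, had 3.71 and 3.62 RPKM in the control and 7.60 and 7.49 RPKM in the knockout libraries, 2.06-fold higher, and Mdh2, the mitochondrial malate dehydrogenase, was 2.35-fold higher (limma, adjusted p = 0.0014 for each). The subunits of NAD-dependent isocitrate dehydrogenase were split. The X-linked Idh3g had 1.45 and 1.92 RPKM against 4.58 and 5.15 RPKM, 2.89-fold higher (limma, adjusted p = 0.0015). The autosomal Idh3b had 21.2 and 21.3 RPKM against 12.2 and 10.6 RPKM, 1.87-fold lower (limma, adjusted p = 0.0019). Sucla2 and Suclg1, subunits of succinyl-CoA synthetase, were 1.57-fold and 1.43-fold lower (limma, adjusted p = 0.0048 and 0.0058). Both calls ended with equal RPKM sums, and that of Suclg1 also without control replicate 2.

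Coenzyme Q synthesis had 3 of 8 genes tested higher and 2 lower, with 1 and 2 after scaling to equal medians and 1 and 3 with quantiles, beside the same 43.3% and 30.5% of all genes. Adck3, a kinase-like protein of this pathway, was 2.81-fold higher (limma, adjusted p = 0.0018), from 0.409 and 0.488 RPKM to 1.34 and 1.19 RPKM. It reached 1 RPKM, the level for testing, only in the knockout libraries. Coq4, which the synthesis complex needs, had 7.88 and 7.79 RPKM in the control and 3.87 and 2.69 RPKM in the knockout libraries, 2.39-fold lower (limma, adjusted p = 0.0025). The 2 electron transfer proteins called higher were Etfb, at 2.0-fold, and Etfdh, which passes electrons from fatty acid oxidation to coenzyme Q, at 1.60-fold (limma, adjusted p = 0.0024 and 0.0076), the latter not called with equal medians or quantiles or without either control library.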
